A study of Mus musculus with 81 samples.

Results

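Nuclear-encoded genes of the mitochondrial respiratory chain and ATP synthase were described in 81 single cells of the fetal mouse pancreas. Members were the genes whose symbol begins with Nduf, Uqcr, Cox4i, Cox5, Cox6, Cox7, Cox8 or Atp5, together with Sdha, Sdhb, Sdhc, Sdhd and Cyc1. The rule took 90 genes, with 99 transcript rows, of the 22869 genes and 29510 rows of the table. Of the 90, 82 encode subunits: 37 of complex I, 4 of complex II, 9 of complex III, 17 of complex IV and 15 of complex V. The other 8 encode no subunit of these complexes and were kept as a group of their own.

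All cells formed 1 group: wild-type CD1 embryos at embryonic day 13.5, pancreas dissected and dissociated with trypsin, with no treatment. Each cell was captured on a microfluidic device and turned into cDNA by the SMARTer chemistry, and its library was made with Nextera XT. The labels name no embryo, litter or pool, so the 81 cells count as 1 sample. No p-value was computed, every SD is a spread over cells, and every difference between cell classes is a description of these cells.

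Complex I passes electrons from NADH to ubiquinone, and complex II does the same from succinate, being at the same time an enzyme of the citric acid cycle. Complex III hands the electrons to cytochrome c, complex IV passes them to oxygen, and complex V uses the resulting proton gradient to make ATP. Most subunits are encoded in the nucleus, and the promoters of many are known to bind NRF1, ETS-family factors such as GABP, and YY1. Several complex IV subunits have isoforms known from heart, skeletal muscle, lung or testis.

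The promoters of Atp5k, Cox6a1, Sdhb and Uqcr11 are shown because each holds both the NRF1 letters GCATGCGC and the ETS letters CCGGAAG, and because they stand for complexes V, IV, II and III. Each is the RefSeq promoter of build GRCm38.p6, printed 5′ to 3′ on the gene's strand, with the NRF1 and ETS letters of either strand in capitals. Atp5k lies at chr5:108434350-108434649, minus strand. Cox6a1 lies at chr5:115348909-115349208, minus strand. Sdhb lies at chr4:140961021-140961320, plus strand. Uqcr11 lies at chr10:80406772-80407071, minus strand.
Atp5k: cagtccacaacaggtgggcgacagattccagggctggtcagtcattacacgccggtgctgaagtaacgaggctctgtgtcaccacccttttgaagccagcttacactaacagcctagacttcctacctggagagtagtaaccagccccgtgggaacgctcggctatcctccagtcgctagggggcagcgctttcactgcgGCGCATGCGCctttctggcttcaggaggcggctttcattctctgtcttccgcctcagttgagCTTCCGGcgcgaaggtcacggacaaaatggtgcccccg
Cox6a1: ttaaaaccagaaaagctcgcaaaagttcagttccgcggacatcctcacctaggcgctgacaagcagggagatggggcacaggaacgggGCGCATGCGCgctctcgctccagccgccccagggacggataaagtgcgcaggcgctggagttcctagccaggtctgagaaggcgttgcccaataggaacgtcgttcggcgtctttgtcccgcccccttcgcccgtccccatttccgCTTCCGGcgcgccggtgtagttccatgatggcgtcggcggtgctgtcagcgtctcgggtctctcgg
Sdhb: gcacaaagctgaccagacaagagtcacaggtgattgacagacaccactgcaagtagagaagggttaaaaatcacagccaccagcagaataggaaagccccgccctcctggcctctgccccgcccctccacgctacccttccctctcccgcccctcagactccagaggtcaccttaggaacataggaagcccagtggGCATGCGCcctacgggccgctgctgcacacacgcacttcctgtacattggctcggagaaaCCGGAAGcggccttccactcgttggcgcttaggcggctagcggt
Uqcr11: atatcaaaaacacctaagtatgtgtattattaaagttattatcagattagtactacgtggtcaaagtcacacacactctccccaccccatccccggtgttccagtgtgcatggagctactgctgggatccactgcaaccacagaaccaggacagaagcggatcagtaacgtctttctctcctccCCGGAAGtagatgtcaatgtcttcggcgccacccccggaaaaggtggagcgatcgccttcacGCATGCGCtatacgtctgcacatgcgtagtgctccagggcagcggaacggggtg

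In Atp5k and Cox6a1 the NRF1 letters read on both strands at once, since the palindrome-like run in capitals holds the motif forwards and backwards. Sdhb and Uqcr11 each hold 1 NRF1 and 1 ETS match. The fifth member with both motifs was Atp5l.

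A promoter was matched through the RefSeq accession for 74 of the 90 members. The NRF1 letters stood in 11 of these 74 (14.9%), against 3.05% of all 27025 genes with a promoter of the same 300-base length and 7.22% of the 3506 with a mean of 10 RPKM or more. RPKM is the number of reads per kilobase of transcript, scaled to the reads of the library. The YY1 letters AAGATGGCG were in 8 of 74 (10.8%), against 1.64% of all genes and 4.88% of those at 10 RPKM. The ETS letters were in 17 of 74 (22.97%), against 9.93% and 24.4%. The SP letters GGGCGG were in 33 of 74 (44.6%), against 38.2% and 71.9%. Both NRF1 and ETS letters were in 5 of 74 (6.76%), against 0.618% and 1.65%. Among the 63 matched members that themselves had a mean of 10 RPKM or more, 9 held the NRF1 letters (14.3%), 7 the YY1 letters (11.1%), 16 the ETS letters (25.4%), 26 the SP letters (41.3%) and 5 both NRF1 and ETS letters (7.94%). Beside all genes of that level, these shares were higher for NRF1 and YY1 letters, near the same for ETS letters and lower for SP letters. YY1 letters were found in promoters of complex I and V members and of Atp5sl, with none among the 3 complex II, 5 complex III and 12 complex IV promoters. Both strands were searched, and a match is a stretch of letters, not a shown binding site.

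Estimated reads per cell had a median of 3523131. The 77 deeper cells had between 1656767 and 5376996. The cells C3, C61, C94 and C43 had 19741, 72320, 196641 and 418941, so that 1 read in a transcript of 1 kilobase was worth 50.7, 13.8, 5.09 and 2.39 RPKM there. A value above 0 in these 4 cells can rest on 1 read, and a 0 limits little. No pair of index sequences was shared by 2 cells. By markers, 65 cells were stromal-like, 5 epithelial-like, 2 endocrine-like, 5 leukocyte-like and 2 endothelial-like, and 2 met no class. Thus most cells were of the stroma, although the series title speaks of progenitors. All 12 epithelial markers, Pdx1 included, reached 10 RPKM in at least 1 of the 7 epithelial and endocrine cells, together called the epithelial side.

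Most members were detected widely. At a threshold of 1 RPKM, 76 of 90 were detected in at least 50% of the cells, against 13.1% of all 22869 genes. Of the 90, 14 were detected in all 81 cells, 75 had a mean of at least 10 RPKM, and 36 had a mean of at least 100 RPKM. At the other end 6 members had a mean under 1 RPKM: Cox4i2, Cox7b2 and Ndufa4l2, and Cox6a2, Cox8b and Cox8c, which were listed at 0 in every cell. Over the 75 members of mean 10 RPKM or more, the median coefficient of variation over cells (SD divided by mean) was 1.02, against 1.77 over all 4393 genes of that level. These sets share only the lower limit of 10 RPKM and were not matched for level above it. Depth also enters this spread, and the part of level or depth was not tested.

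**Figure D1:**
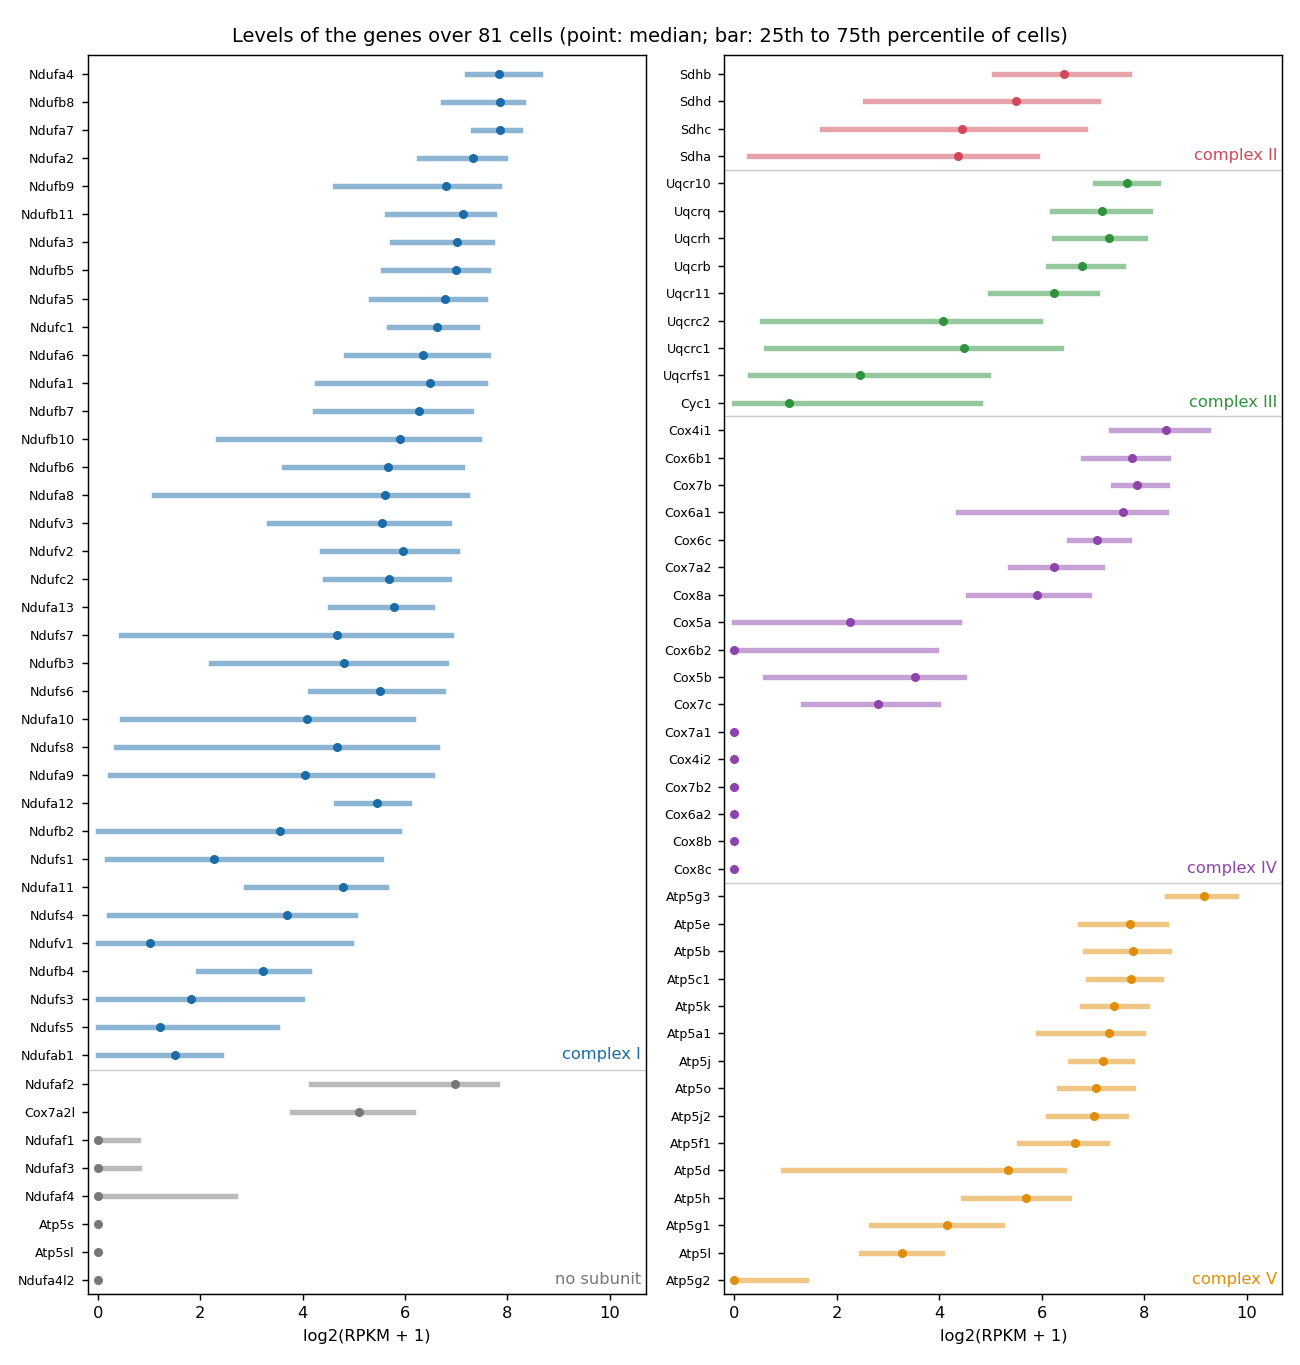
Level of the genes reported here over the 81 cells, ordered by mean within each complex, on the log2(RPKM + 1) scale. Points are medians over cells and bars run from the 25th to the 75th percentile; Atp5g3 stands highest and 6 of the complex IV genes lie at a median of 0 with no bar.

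By complex, the median of the members' mean levels was 84.3 RPKM for complex I, 84.1 for complex II, 95.3 for complex III, 22.7 for complex IV and 158 for complex V. The 17 complex IV genes include isoforms at or near 0, and 10 of the 17 were detected in at least 50% of the cells. In complexes I, II and III all 37, 4 and 9 genes were, and in complex V 14 of 15 were. The median coefficient of variation was lowest in complex V, at 0.693, and 1.39 in complex II.

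Complex I was led by Ndufa4, Ndufb8 and Ndufa7. Ndufa4, which keeps a complex I name although the protein is placed with complex IV, averaged 267 ± 175 RPKM (SD over cells, n = 81), with a lowest value of 0, a median of 227 and a highest of 774. Ndufb8, an accessory subunit of the membrane arm, averaged 262 ± 218 RPKM and was detected in all 81 cells. Ndufa7, an accessory subunit, averaged 259 ± 188 RPKM. These 3 levels differed by far less than their spread. The other gene found in all 81 cells was Ndufc1, at 123 ± 98.9 RPKM. The lowest were Ndufab1, the mitochondrial acyl carrier protein, at 5.81 ± 12.1 RPKM, and Ndufs5, at 9.66 ± 17.1 RPKM, with 49 and 41 cells at 1 RPKM.

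Core subunits of complex I were detected unevenly. Ndufv1, which binds NADH and flavin, had a median of 1.03 RPKM and a highest value of 181, and was at 1 RPKM in 42 cells. Ndufs1, the largest iron-sulfur subunit, had a median of 3.85 and a highest value of 357, with 44 cells. In both genes about as many cells were near 0 as were clearly above it. Ndufs3 was at 1 RPKM in 43 cells, and Ndufs7 and Ndufs8, on the path to ubiquinone, in 55 and 57. Ndufv2, the partner of Ndufv1, stood apart with a median of 60.9 RPKM and 70 cells.

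In complex II the order was Sdhb, Sdhd, Sdhc and Sdha. Sdhb, the iron-sulfur subunit, averaged 160 ± 195 RPKM and was at 1 RPKM in 78 cells. Sdhd and Sdhc, the membrane anchors, averaged 105 ± 154 and 62.9 ± 82.4 RPKM, in 67 and 63 cells. Sdha, the flavoprotein, averaged 44.4 ± 68.4 RPKM, in 56 cells. Each SD exceeded its mean, and no neighbours in this order differed beyond that spread.

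Complex III was led by its small subunits. Uqcr10 averaged 248 ± 230 RPKM, with a lowest value of 1.15, a median of 203 and a highest of 1809. Uqcrq averaged 190 ± 143 RPKM, and both were detected in all 81 cells. Uqcrh, the hinge protein, averaged 167 ± 118 RPKM. The lowest were the 2 catalytic subunits encoded in the nucleus: Cyc1, cytochrome c1, at 23.1 ± 45.7 RPKM in 41 cells, and Uqcrfs1, the Rieske iron-sulfur protein, at 23.7 ± 37.2 RPKM in 56 cells. The core proteins Uqcrc1 and Uqcrc2 averaged 53.5 and 54.7 RPKM.

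In complex IV, Cox4i1 averaged 412 ± 320 RPKM, with a lowest value of 7.97, a median of 343 and a highest of 1771. Cox6b1, at the face of the intermembrane space, averaged 269 ± 230 RPKM. Cox7b averaged 258 ± 125 RPKM and had a coefficient of variation of 0.486. Cox6c and Cox7a2 were likewise detected in all 81 cells, at 160 ± 97.6 and 96.99 ± 73.97 RPKM. Cox5a and Cox5b, subunits outside the catalytic core, averaged 24.02 ± 56.75 and 13.8 ± 14.9 RPKM. Cox7c averaged 10.8 ± 13.4 RPKM.

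Complex V held the highest member of all. Atp5g3, 1 of 3 genes that encode the same c subunit of the rotor ring (chr2:73746507-73749351, minus strand, mm9), averaged 682 ± 462 RPKM, with a lowest value of 13.3, a median of 572 and a highest of 2048. Atp5e and Atp5b, the epsilon and the catalytic beta subunit, averaged 249 ± 174 and 246 ± 165 RPKM. Atp5c1, the gamma subunit of the central stalk, followed at 237 ± 157 RPKM, and Atp5a1, the alpha subunit, at 183 ± 152 RPKM. The levels of Atp5a1, Atp5b, Atp5c1 and Atp5e overlapped over the cells. The lowest were Atp5g2 at 1.85 ± 4.74 RPKM and Atp5l, subunit g, at 11.9 ± 13.3 RPKM.

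Among the 8 genes that encode no subunit, Ndufaf2, an assembly factor of complex I, averaged 149 ± 139 RPKM in 70 cells. Cox7a2l, a factor of respiratory supercomplexes, averaged 49.1 ± 47.7 RPKM in 73 cells. Ndufaf1, another assembly factor, averaged 20.5 ± 60.3 RPKM but was at 1 RPKM in 20 cells. The remaining 5, Ndufaf3, Ndufaf4, Atp5s, Atp5sl and Ndufa4l2, averaged between 0.0392 and 7.47 RPKM.

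Low values can come from reads that fit more than 1 place, so the sequence of each member was compared with transcripts of all other genes. Of the 50-base windows of a member's longest transcript, the share also present in another gene's transcript was 0 for 43 members and at least 50% for 6. These 6 were Atp5g2 (87.4%), Atp5l (84.8%), Ndufa12 (53.8%), Cox7c (52.95%), Atp5h (50.5%) and Atp5o (50.3%). Atp5g2 (chr15:102493299-102501478, minus strand, mm9) shared windows with 3 entries of other genes and Atp5l with 14. An entry is 1 gene name with 1 transcript type, and those of Atp5g2 were of Gm10175 and Gm10231. Most entries of both genes were pseudogenes. The 6 genes had a median of mean levels of 31.6 RPKM, against 69.5 for the 25 genes that shared from 10% to under 50%, 157 for the 16 that shared less, and 69.4 for the 43 that shared none. The order of these medians did not follow the shared share throughout. Atp5o averaged 158 RPKM and was in all 81 cells, while Cyc1, Ndufv1 and Uqcrfs1, all under 25 RPKM, shared no window. For Atp5o 19.1% of windows were in a pseudogene, and its top match was another gene entry also named Atp5o. The shared share counts every kind of transcript alike, antisense ones included. Spearman's rho between the shared share and the mean level was 0.0028 over the 90 genes, and with the number of cells detected it was 0.23. The 43 genes that shared no window include 7 that encode no subunit, and isoforms at or near 0 such as Cox4i2, Cox7b2, Cox8b and Cox8c. Both values of rho include them, and the part of shared sequence alone was not tested. How the authors treated reads of several places is not given in the sources used here, so the levels of these 6 genes are uncertain.

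**Figure D2:**
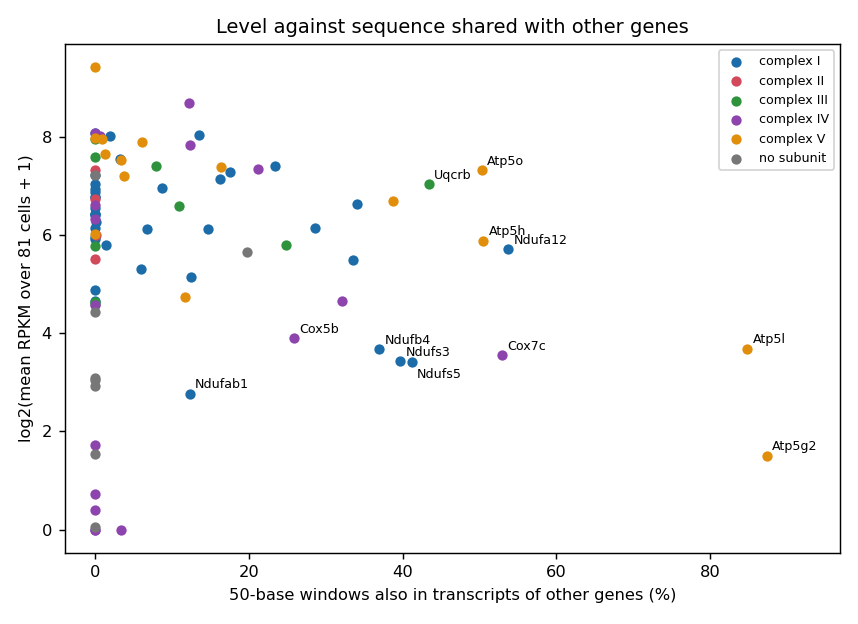
Mean level over 81 cells, as log2(mean RPKM + 1), against the percent of a gene's 50-base windows that also occur in transcripts of other genes; each point is 1 of the 90 genes, coloured by complex. Atp5g2 and Atp5l lie far to the right and low, Atp5o at 50.3% is high, and many low genes sit at 0 shared windows.

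Overlap on the genome touched few members. Ndufs5 (chr4:123389953-123395429, minus strand, mm9) overlaps the row BC002163 on the same strand over 5452 bases. Ndufs5 averaged 9.66 RPKM, and BC002163, a processed pseudogene in the annotation used, averaged 10.2 RPKM, so its reads may be split between both. On the opposite strand Atp5j overlaps Gabpa over 451 bases and Atp5f1 overlaps Wdr77 over 751. The library chemistry is not stated to keep strand, so reads in these stretches cannot be told apart.

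In each isoform family 1 gene was the highest in most cells, but it was not always the only one detected. Cox4i1 was above Cox4i2, the isoform known from lung, in all 81 cells. Cox4i2 was at 1 RPKM in 3 cells, at 28.2 in C39, 16.8 in C46 and 6.85 in C82. Cox7b was above Cox7b2 in all 81, and Cox7b2 was at 1 RPKM only in C46, at 26.5 RPKM. Ndufa4l2 reached 1 RPKM in C46 alone, at 2.95 RPKM. Cox6a1 averaged 226 ± 224 RPKM and Cox8a 79.3 ± 75.5 RPKM, while the striated muscle isoforms Cox6a2 and Cox8b, and Cox8c, were listed at 0. For a gene listed at 0 in 81 cells, the limit was set at 3 divided by 81. This allows a share of up to 3.70% of cells with a read, as an approximate 1-sided 95% limit for counting error only. It counts the 4 shallow cells too, where a 0 limits little.

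Cox7a1, the heart and skeletal muscle isoform, was at 1 RPKM in 3 cells. It was at 136 RPKM in C82, 36.6 in C95 and 16.1 in C49, the first 2 epithelial-like and the last stromal-like. It was higher than Cox7a2 in C82 and C49. Cox7a2 exceeded Cox7a2l in 62 cells and was below it in 19.

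Among the complex IV subunit isoforms below the main gene of their family, only Cox6b2, known from testis, was detected in more than a few cells. It was at 1 RPKM in 25 cells, 30.9% of 81 (95% Clopper-Pearson interval 21.1 to 42.1%), with a mean of 22.7 ± 55.97 RPKM. Its highest values were 339 RPKM in C50, 253 in the shallow cell C94 and 182 in C30, all stromal-like. It was above Cox6b1 in 4 cells (C30, C50, C63 and C80), where Cox6b1 was between 24.8 and 336 RPKM. The 25 cells were of every class. Cox6b2 shared no 50-base window with another gene. C28, C29 and C30, at 106, 101 and 182 RPKM, have 1 index sequence in common, and the part of index exchange was not tested.

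Of the 3 genes for the c subunit, Atp5g3 was above Atp5g1 in 79 cells and above Atp5g2 in all 81. The 2 exceptions were leukocyte-like: Atp5g1 was at 32.4 and Atp5g3 at 27.4 RPKM in C2, and at 118 and 13.3 RPKM in C31. Atp5g1 averaged 25.8 ± 28.2 RPKM over all cells. Atp5g2, with 87.4% of its windows shared, is the member whose place in this order is least sure.

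**Figure D3:**
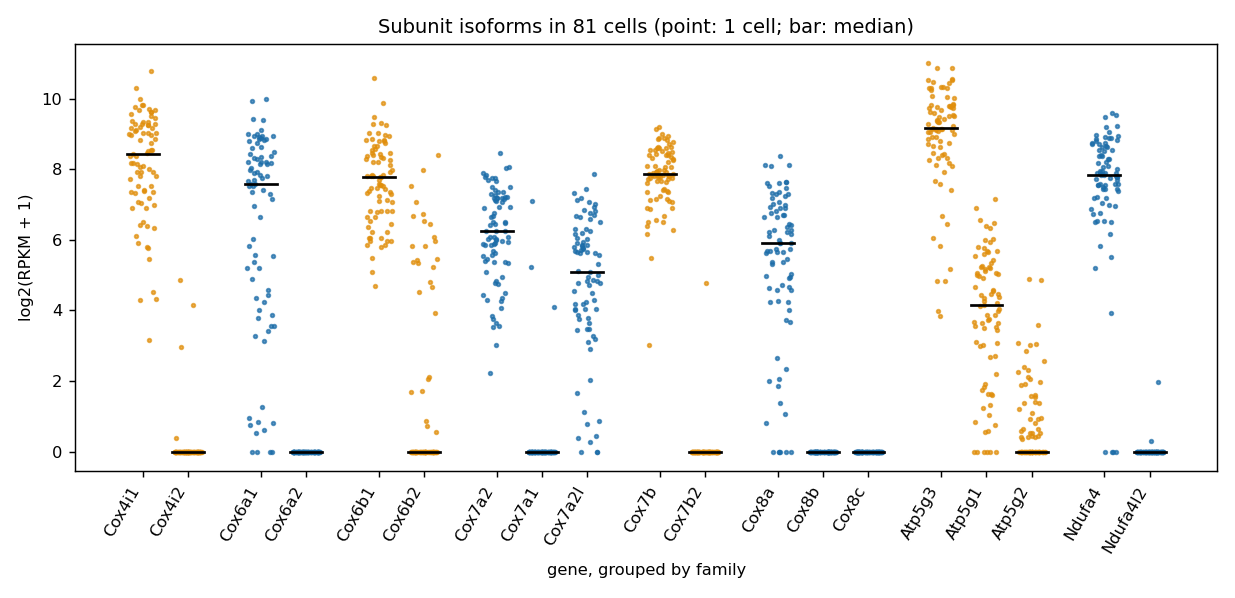
Levels of the isoform families in the 81 cells on the log2(RPKM + 1) scale; each point is 1 cell, each bar the median, and neighbouring families alternate in colour. Cox6b2 has 25 cells at 1 RPKM or more, Cox4i2 and Cox7a1 have 3 each, and Cox6a2, Cox8b and Cox8c lie at 0 throughout.

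The members were next summarised per cell by the median log2(RPKM + 1) of the 85 that were above 0 in at least 3 cells. It ran from 2.88 in C81 to 6.97 in C24. Spearman's rho with the number of genes at 1 RPKM in the cell was 0.60 over 81 cells and 0.55 over the 63 deeper stromal cells. With estimated reads it was 0.25. A cell in which more genes were detected thus had a higher member median, and both come from the same library. The members' summed RPKM had a rho of 0.12 with genes detected. In a library of 1 cell, less RNA per cell and a less complete cDNA cannot be told apart.

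**Figure D4:**
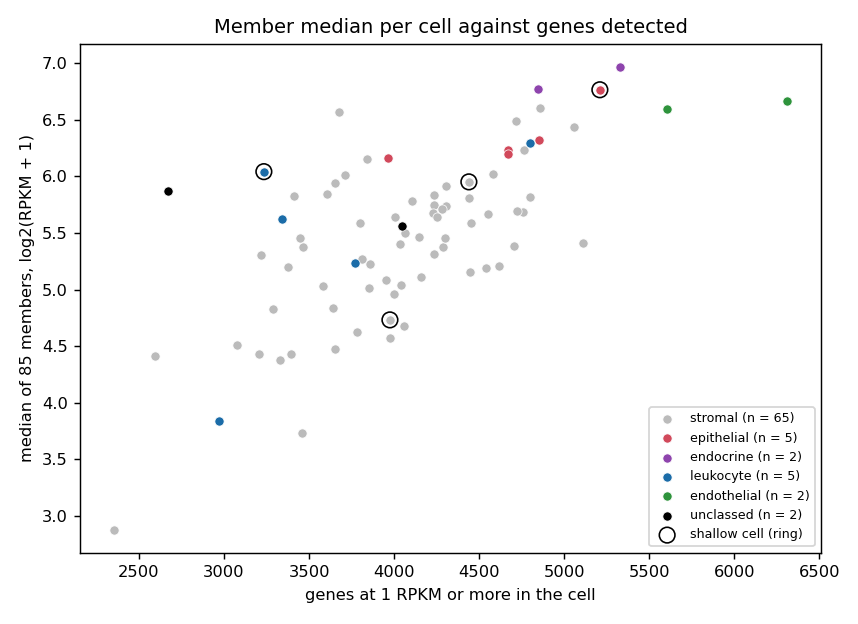
Median log2(RPKM + 1) of 85 members in each cell against the number of genes at 1 RPKM or more; each point is 1 cell, coloured by marker class, and rings mark the 4 shallow cells. The 7 epithelial and endocrine cells lie between 6.17 and 6.97 and the 65 stromal cells between 2.88 and 6.61.

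Correlations between members from cell to cell were weak. Over the 77 deeper cells, the median Spearman's rho of 2556 pairs of subunit genes was 0.066, against 0.024 over pairs of all genes of mean 10 RPKM or more. It was 0.067 for pairs within a complex and 0.066 for pairs between complexes. By complex it was 0.122 in V, 0.104 in III, 0.086 in IV, 0.059 in II and 0.050 in I. These weak values in sparse data are given as descriptions only. The per-cell medians of complexes I and III had a rho of 0.41, and those of complexes II and III 0.03.

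C81, a stromal-like cell with 3492891 estimated reads and 2353 genes at 1 RPKM, had 46 of the 90 members at 1 RPKM. Its complex medians were 0.87 for I, 0.80 for II and 0.20 for III but 6.29 for complex V. Atp5a1 reached its highest level of all cells there, 826 RPKM. Its low member median was therefore not a low level of every member.

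Cell classes were compared on the difference of mean log2(RPKM + 1), a scale that understates changes of low genes, with 1 log2 unit as the size that counts. Most members were higher on the epithelial side (C24, C43, C47, C56, C82, C91 and C95) than in the 65 stromal-like cells. Of 90, 80 had a difference above 0, 38 were higher by 1 or more and 0 lower, where 7204 of the 13237 genes above 0 in 3 cells had a difference above 0, 15.7% were higher by 1 or more and 4.28% lower. Among the 75 members of mean 10 RPKM or more 35 were higher, where 26% of all genes of that level were higher and 9.95% lower. The median difference was 0.83 over all members and 0.94 over those 75, against 0.08 and 0.34 over the matching sets of all genes.

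By complex, all 4 complex II genes were higher, 20 of 37 of complex I, 4 of 9 of complex III, 6 of 17 of complex IV and 3 of 15 of complex V. The median differences were 1.44, 1.06, 0.91, 0.60 and 0.77. Of all genes of mean 10 RPKM or more 26% were higher, with a median of 0.34, and the share higher in complex V was below that 26%. Of the 8 that encode no subunit, 1 was higher, Ndufaf3, and their median was 0.18. No test of a difference between complexes is possible in 1 sample.

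Uqcrfs1, the Rieske protein, showed the largest difference. It was at 10.9 RPKM in C43, 88.4 in C47, 126 in C82, 46.4 in C91, 63.2 in C95, 137 in C24 and 16.01 in C56, and at 0, 2.32 and 153 RPKM as lowest, median and highest of the stromal cells. All 7 cells lay above the stromal median but within the stromal range, and the difference was 3.18 log2 units. Ndufa10, an accessory subunit of complex I, was between 19.7 and 348 RPKM on the epithelial side, with a median of 77.9, and between 0 and 332 in the stroma, with a median of 5.25. The difference was 3.15. Cox5a was between 6.88 and 102 RPKM, with a median of 18.8, against 0 to 197 and 1.35, a difference of 2.64. In all 3 genes each of the 7 cells was at 1 RPKM, against 42, 42 and 33 of 65 stromal cells.

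All 4 complex II genes had higher medians on the epithelial side. Sdha had a median of 44.9 RPKM on the epithelial side and 16.1 in the stroma, Sdhb 282 and 80.7, Sdhc 62.6 and 15.3, and Sdhd 126 and 44.2. Their ranges overlapped: Sdhd was at 0.677 RPKM in C82 and at 586 in C43. The differences were 1.96, 1.5, 1.38 and 1.38. Stromal cells differed among themselves by as much: the median of the 4 genes per cell averaged 5.51 ± 1.44 log2 units in the 30 stromal cells numbered 1 to 48 and 3.66 ± 1.797 in the 35 numbered 49 to 96 (SD over cells), and 6.29 ± 0.61 in the 7 epithelial-side cells. Within cells numbered 1 to 48, 2 of the 4 genes were higher by 1 or more, and the differences ran from -0.77 to 2.46. Of all genes of mean 10 RPKM or more, 27.7% were higher there and 19.4% lower. Within cells numbered 49 to 96, 3 of the 4 genes were higher by 1 or more, with differences from 0.64 to 3.16. Of all genes of that level, 34.2% were higher there and 14.2% lower. The size of the complex II difference thus depends on which stromal cells are used.

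The lowest differences were small. Ndufb6 had a median of 19.2 RPKM on the epithelial side and 59.9 in the stroma, a difference of -0.74. Ndufaf1 and Ndufaf2 followed at -0.29 and -0.18. Atp5g3, the member of highest mean, had a median of 431 RPKM on the epithelial side and 628 in the stroma, and its difference was -0.11. Cox4i1, at 704 and 267 RPKM, had a difference of 1.73.

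**Figure D5:**
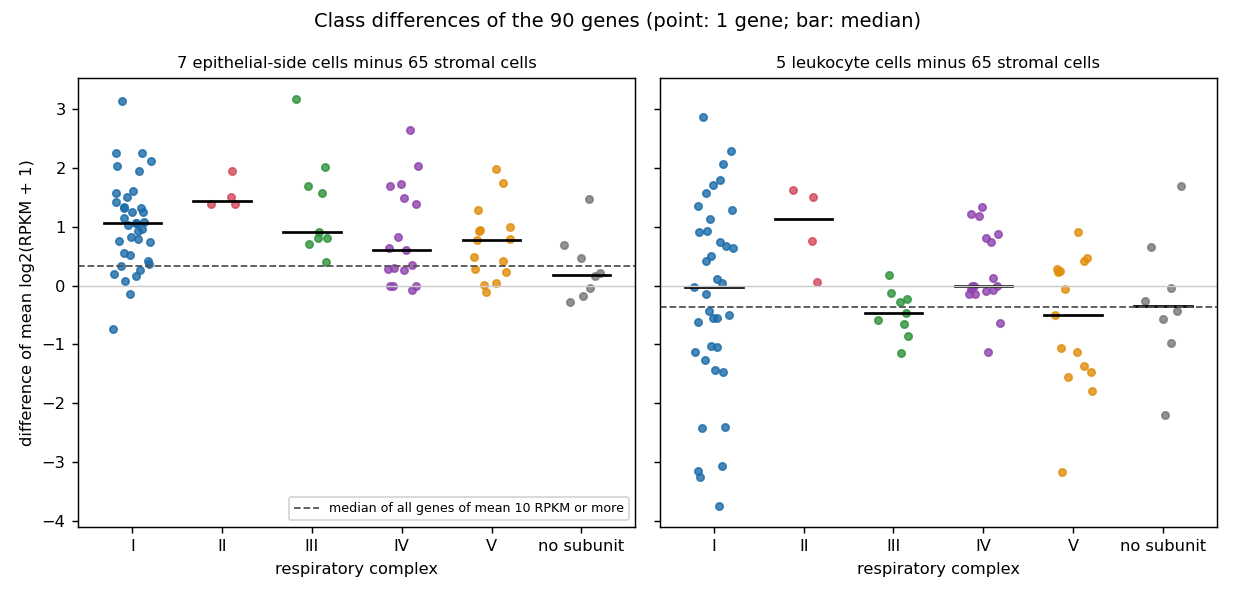
Difference of mean log2(RPKM + 1) between the epithelial side and the stromal cells (left) and between leukocyte-like and stromal cells (right) for each of the 90 genes, by complex. Black bars are medians and the dashed line is the median of all genes of mean 10 RPKM or more, 0.34 on the left and -0.36 on the right; on the left no gene lies below -1.

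The number of genes detected differed between these classes too, with a median of 4844 genes at 1 RPKM on the epithelial side and 4039 in the stroma. Per cell, the member median was 6.17 in C91, 6.20 in C82, 6.23 in C47, 6.33 in C95, 6.77 in C43, 6.77 in C56 and 6.97 in C24. In the stroma it was 2.88 at the lowest, 5.41 at the median and 6.61 at the highest, and 5 of 65 cells lay above the lowest epithelial-side cell. Against the 38 stromal cells with at least as many genes detected as C91, a comparison chosen after seeing the data, 34 members were higher and 0 lower, where 20.6% of all genes of mean 10 RPKM or more were higher and 13.3% lower. The median difference was 0.68. All genes of mean 10 RPKM or more had a median of 0.17 there. Without the shallow C43, 33 members were higher and 1 lower, where 26.2% and 11.2% of genes of that level were. Members took 4.71 ± 0.76% of all RPKM in the 7 cells and 4.11 ± 0.60% in the stroma (SD over cells). The share of cells at 1 RPKM was higher by a median of 4.62 percentage points for the members, 5.93 for all genes of mean 10 RPKM or more and 3.08 for all 13237. Most members were detected in most cells of either class, which limits this measure.

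Stromal markers were present on the epithelial side: their summed level ran from 51.3 to 388 RPKM in the 7 cells and from 182 to 1170 in the stroma, and 5 of the 7 cells had at least 3 of the 13 at 10 RPKM. In the stroma the summed epithelial markers ran from 0 to 347 RPKM with a median of 0.332, with Pdx1 at 0. Endocrine markers summed to at most 380 RPKM in the stroma. The part of mixed or paired cells in the differences was not tested.

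The 5 leukocyte-like cells went in both directions, in a comparison that shares its stromal cells with the one above. Against the stroma 15 members were higher by 1 or more and 22 lower, where 11.3% of all 13237 genes were higher and 12.9% lower, and the members' median difference was -0.07. Among genes of mean 10 RPKM or more 15.3% were higher and 29.7% lower, and of the 75 members there 15 were higher and 21 lower. The shares were closer to those of genes of mean 10 RPKM or more than to those of all genes. By complex, 0 of 15 complex V genes were higher and 7 lower, 9 and 12 of the 37 complex I genes were higher and lower, and 2 and 0 of the 4 complex II genes were. Without the shallow cell C3 these counts were 1 and 5 in complex V, 10 and 9 in complex I, and 2 and 1 in complex II. The counts by complex thus rest in part on that cell.

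Ndufv2, the electron-passing partner of Ndufv1, was at 0.2 RPKM in C2, 0 in C3 and C31, 95.2 in C36 and 0.5 in C54, against a stromal median of 60.99 RPKM, a difference of -3.76. Ndufa4 was at 0 in C2 and C3, 14.4 in C31, 376 in C36 and 468 in C54, a difference of -3.26. Atp5j2, subunit f of complex V, was at 36.1, 0, 0, 134 and 37.1 RPKM in the same order, a difference of -3.18. In each gene C36 lay above the stromal median and C3 was at 0, so these differences rest on some of the 5 cells. C3, C36 and C54 each had 4 of the 13 stromal markers at 10 RPKM, and the stromal markers summed to between 45.4 and 462 RPKM in the 5 cells. Their part in the differences was not tested. Ndufa10 was at 313, 41.98, 429, 2.4 and 56.5 RPKM, a difference of 2.86. Ndufs8 was between 45.7 and 135 RPKM in all 5 cells, against a stromal median of 20.3, a difference of 2.30. Ndufb10 followed at 2.07.

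C3 is the shallowest cell, and 0 in it says little. Without it 18 members were higher and 20 lower, with a median of 0.00, where 16.2% and 33.7% of genes of mean 10 RPKM or more were higher and lower. Without C31, whose member median of 3.84 was the lowest of the 5, 23 were higher and 19 lower, where 19.8% and 27.4% were. With values divided by a size factor per cell, 21 were higher and 15 lower. All 13237 genes went from 11.3% higher and 12.9% lower to 12.5% and 10.54%. Genes of mean 10 RPKM or more went from 15.3% and 29.7% to 17.8% and 25.1%, and so stayed more often lower than higher.

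Other mitochondrial and metabolic lists were set beside the members. For their counts, 15.7% of all 13237 genes were higher on the epithelial side and 4.28% lower. Among genes of mean 10 RPKM or more these shares were 26% and 9.95%. Of 16 citric acid cycle genes 8 were higher on the epithelial side by 1 or more and 1 lower, with a median of 1.07. Sucla2, a subunit of succinyl-CoA synthetase, had a median of 58.7 RPKM on the epithelial side and 1.36 in the stroma, a difference of 3.06. Suclg1, the partner of Sucla2, had a difference of 2.92. Dlst, a subunit of the 2-oxoglutarate dehydrogenase complex, was the gene that was lower, at -1.16.

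Of 24 assembly factors, whose mean levels had a median of 4.62 RPKM, 4 were higher and 0 lower. Their median difference was 0.28, led by Cox17, the copper chaperone of complex IV, at 2.87. Of 12 carriers and partners of the chain 4 were higher and 0 lower, with a median of 0.59, led by Slc25a5, an ATP and ADP exchanger, at 2.12. Of 16 glycolysis genes 4 were higher and 0 lower, with a median of 0.25, led by Aldoa at 2.18. Gapdh, a gene that every cell uses, averaged 0.622 RPKM there with 82.5% of its windows shared, and Pgk1 averaged 7.83 RPKM with 67.96% shared, so the median of this list is uncertain. Of 12 regulators 1 was higher and 0 lower, with a median of -0.06. In the assembly factors, glycolysis genes and regulators, the share higher did not exceed the 26% of all genes of mean 10 RPKM or more. The regulators were low, with a median of mean levels of 4.78 RPKM, and Nrf1 itself averaged 4.08 RPKM and was at 1 RPKM in 0 of 7 epithelial-side and 19 of 65 stromal cells. Gabpa, a GABP subunit, had the difference of 1.29. It lies across from Atp5j on the other strand.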

How the data were processed

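Single-cell RNA was measured in 81 cells of CD1 mouse pancreas at embryonic day 13.5, per the labels. Per the submitters' processing notes, CASAVA 1.8.2 and build mm9 were used. How reads were aligned and counted, how cells were filtered, and what was done with reads of several places is not stated there. The authors deposited a single table of values by transcript and cell without naming a unit. The deposited values were read as RPKM, because multiplied by transcript length they fall near whole reads: a median over cells of 81.4% of low values, and 78.7% at the lowest, lay within 0.15 of a whole number. Reads per cell were estimated from these steps. Reads carry no molecular identifiers, so intervals and limits cover counting error only.

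For each gene the transcript row with the largest mean was used. Levels were set on the log2(RPKM + 1) scale, and a gene was called detected at 1 RPKM. A cell took a class when at least 3 of that class's markers reached 10 RPKM, in the order endocrine, epithelial, leukocyte, endothelial, stromal. No doublet caller was run on 81 cells. With 1 sample no test was made, and a class difference of 1 log2 unit was counted. Transcript windows came from GENCODE vM21, used for lengths and sequences and never for coordinates, and promoters from RefSeq. The scripts, in Python 3.11.15 with numpy 2.4.6, pandas 2.3.3 and scipy 1.17.1, were tested on simulated data. Alternatives covered the pseudocount, low-value filter, scaling, class rule, transcript row, windows and cells used. Named were the 3 highest and 2 lowest members of each complex, all isoforms, members under 1 RPKM, and the 3 largest differences in each direction. A few others, such as the core subunits of complex I, were named after their values were seen. Members and lists were chosen with earlier results of these data known. Some single genes named by these rules are not reported here.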

Additional observations from a re-analysis of the deposited data

How the results depend on the processing

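No value here is a test, since the 81 cells are 1 sample. No paired analysis was possible because the labels give 1 group and the result comes from no test. With a pseudocount of 10 RPKM the median level of complex IV moved from 2.68 to 4.34 log2 units, and 20 members in place of 38 were higher on the epithelial side. The share of all 13237 genes higher fell as well, from 15.7% to 3.57%, and that of genes of mean 10 RPKM or more from 26% to 8.49%. With windows of 75 bases, 3 members in place of 6 shared at least 50% of them. Members lower on the epithelial side numbered 1 without the endocrine cells, 1 without the 4 shallowest cells, 2 in cells numbered 1 to 48 and 2 in cells numbered 49 to 96, against 0. In the same order 5.68%, 5.07%, 10.2% and 6.90% of all 13237 genes were lower, against 4.28%. Leaving out each epithelial-side cell in turn gave 33 to 46 members higher and a median of 0.81 to 1.01. Of genes of mean 10 RPKM or more, 26.1% to 28.6% were higher in these settings. Members lower numbered 0 to 1 (1 without C24 and 1 without C43). Without C24 10.97% of genes of that level were lower, and without C43 11.2%. Leaving out each leukocyte-like cell gave 16 to 23 members higher, 19 to 25 lower and a median of -0.14 to 0.00. Of genes of mean 10 RPKM or more, 15.8% to 19.8% were higher and 27.4% to 36.5% lower in these settings. The most members lower, 25 of 90, came without C36. There 36.5% of genes of that level and 16.5% of all 13237 genes were lower. With the size factor 35 members were higher on the epithelial side, where 13.9% of all 13237 genes and 23.5% of those of mean 10 RPKM or more were. Complex II had a median level of 5.30 log2 units in cells numbered 1 to 48 and 3.74 in cells numbered 49 to 96, and complex III 6.23 and 5.23. The other alternatives run for detection and for counts in the class differences stayed within 1.5 times. Depth limits C3, C61, C94 and C43 most.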

Other observations

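The 2 endothelial-like cells, C22 and C72, had member medians of 6.59 and 6.67 log2 units, and 5606 and 6311 genes at 1 RPKM, the most of all 81 cells. The members' median difference from the stroma was 1.28, against 0.75 over all genes of mean 10 RPKM or more. Uqcrc2, a core protein of complex III, showed the largest difference, at 3.85, and Ndufs3, a core subunit of complex I, the lowest, at -1.99. Members took 5.54% of all RPKM in C22 and 5.96% in C72. Of the cells without a class, C13 had a member median of 5.88 with 2673 genes at 1 RPKM, and C45 one of 5.56 with 4045 genes. C45 had 5 of 6 neural crest and glia markers at 10 RPKM, a list that was not among the classes.

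Cells numbered 1 to 48 had a member median of 5.71 ± 0.65 log2 units (SD, n = 40 cells), and cells numbered 49 to 96 one of 5.29 ± 0.77 (n = 41 cells). Genes at 1 RPKM averaged 4260 and 3919 in them. What the number stands for is not given in the sources used here.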
